A study of Mus musculus with 8 samples.

Results

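Receptor chains for the myeloid cytokines GM-CSF, IL-3, G-CSF, M-CSF and IL-6 were followed in haematopoietic stem cells, which renew themselves and give rise to all blood cells. The 8 genes are Csf2ra, Il3ra, Csf2rb, Csf2rb2, Csf3r, Csf1r, Il6ra and Il6st, of 24222 gene symbols in all. They were chosen by gene family, and the family was taken up because Csf2ra was lower in the knockout. The difference in Csf2ra is therefore a description here and carries no test, while the other 7 genes were taken as members of the family. The cells were sorted by flow cytometry from bone marrow of 4 wild-type control mice (WT) and 4 mice lacking the histone demethylase genes Kdm4a, Kdm4b and Kdm4c (KO), all on the C57BL6 strain, 2 weeks after induction of the knockout. There was 1 RNA-seq library per mouse, made from amplified total RNA. The sources used here do not state the way the knockout was induced, the exons removed, the sort markers, or the age and sex of the mice, nor whether the WT mice received the inducing treatment.

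These cytokines act through cell-surface receptors that signal into the cell mostly by way of JAK kinases and STAT transcription factors. GM-CSF and IL-3 each bind their own alpha chain, and the alpha chain pairs with a shared beta chain that carries the signal. Mice have an additional beta chain, encoded by Csf2rb2, that works with the IL-3 receptor only. IL-6 binds its alpha chain, encoded by Il6ra, and the complex signals through gp130, encoded by Il6st and shared by the whole IL-6 family. The G-CSF receptor (Csf3r) is a single chain that pairs with itself, and the M-CSF receptor (Csf1r) is a receptor tyrosine kinase of a different structural class. In blood these receptors are best known from granulocytes, monocytes, macrophages and their precursors, and stem and progenitor cells carry some of them at low levels.

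Total counts ranged from 3594315 to 6044289 in WT and from 5541504 to 14872493 in KO libraries, so depth was on the whole higher in KO. Levels are given as CPM, read counts relative to the scaled library total, and 3 counts, taken as the floor of detection, correspond to 0.201 to 0.839 CPM across the libraries. The 3 targeted genes were each lower in every KO library than in any WT library, with log2 fold changes of -0.87 for Kdm4a, -1.40 for Kdm4b and -1.71 for Kdm4c, of which Kdm4c passed edgeR's quasi-likelihood test over all genes (adjusted p = 2.05e-05) and Kdm4a and Kdm4b did not (0.132 and 0.142). All 15 stem cell markers listed passed the filter on low counts, among them Slamf1 (CD150) at 104 ± 5.14 CPM (WT) against 100.1 ± 5.66 CPM (KO) (SD, n = 4). Markers on the neutrophil and monocyte list and on the macrophage and dendritic cell list were uneven. Some were at or near 0, with at most 12 counts of S100a8, 13 of Ltf and 1 of C1qa in any library and Siglech at 0 in all of them. Others of the same lists were well counted, among them Lyz2 with 606 to 2835 counts, Itgam with 217 to 1581, H2-Ab1 with 157 to 1150, Cd74 with 93 to 1091 and Mpo with 51 to 357. These markers were named after their values were seen.

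Of the 8 receptor genes, 6 passed the filter on low counts and 2, Il3ra and Csf1r, did not. Csf2ra was lower in KO than in WT by 3.44-fold. Of the other 5 that could be tested, 0 passed edgeR's quasi-likelihood test at an adjusted p of 0.05 over all genes, at which 0.583% of the 11498 genes tested were called. At an unadjusted p under 0.05 there was 1, Csf2rb2, higher in KO, against 11.2% of all genes in either direction, 5.76% higher and 5.44% lower, and DESeq2 and limma voom each called 0. The libraries of WT and KO overlapped in all 5, and did not overlap in 5.81% of the genes tested, 2.88% with KO higher. The fitted change was above 0 for 2 of the 5, Csf2rb2 and Csf3r, and for 50.2% of all genes.

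Csf2ra encodes the alpha chain that binds GM-CSF. It lies at the end of chromosome 19 (61223957 to 61228429, minus strand, GRCm38, the same build as mm10), with 12 exons in its longest coding transcript and no exon shared with another annotated gene. In WT mice 1 to 4 it was at 23.1, 29.1, 16.8 and 30.3 CPM. In KO mice 1 to 4 it was at 5.0, 3.68, 9.09 and 9.84 CPM. Every KO library was below every WT library, the nearest being WT mouse 3 and KO mouse 4. The means were 24.8 ± 6.20 CPM in WT and 6.90 ± 3.02 CPM in KO (SD, n = 4), and the fitted log2 fold change was -1.78 (SE 0.333, 95% interval -2.47 to -1.1). Since Csf2ra was chosen for this fall, its size may be overstated, and the interval is not a test against 0. Libraries that do not overlap, with KO lower, were found for 2.93% of all genes tested, but nothing is read from that here because the gene was chosen on this difference. These are bulk samples, so fewer cells with Csf2ra RNA and less Csf2ra RNA per cell cannot be told apart.

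The counts behind these levels ran from 86 to 188 in WT and from 26 to 136 in KO. KO mouse 3 had 136 counts because its library was the deepest, and it was still below all WT libraries after scaling. The spread between mice was wider in KO (coefficient of variation 43.8%) than in WT (25%), and both were above the counting error alone (12.6% and 8.85%). KO mice 1 and 2 held the lower pair of KO values and KO mice 3 and 4 the higher pair.

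**Figure D1:**
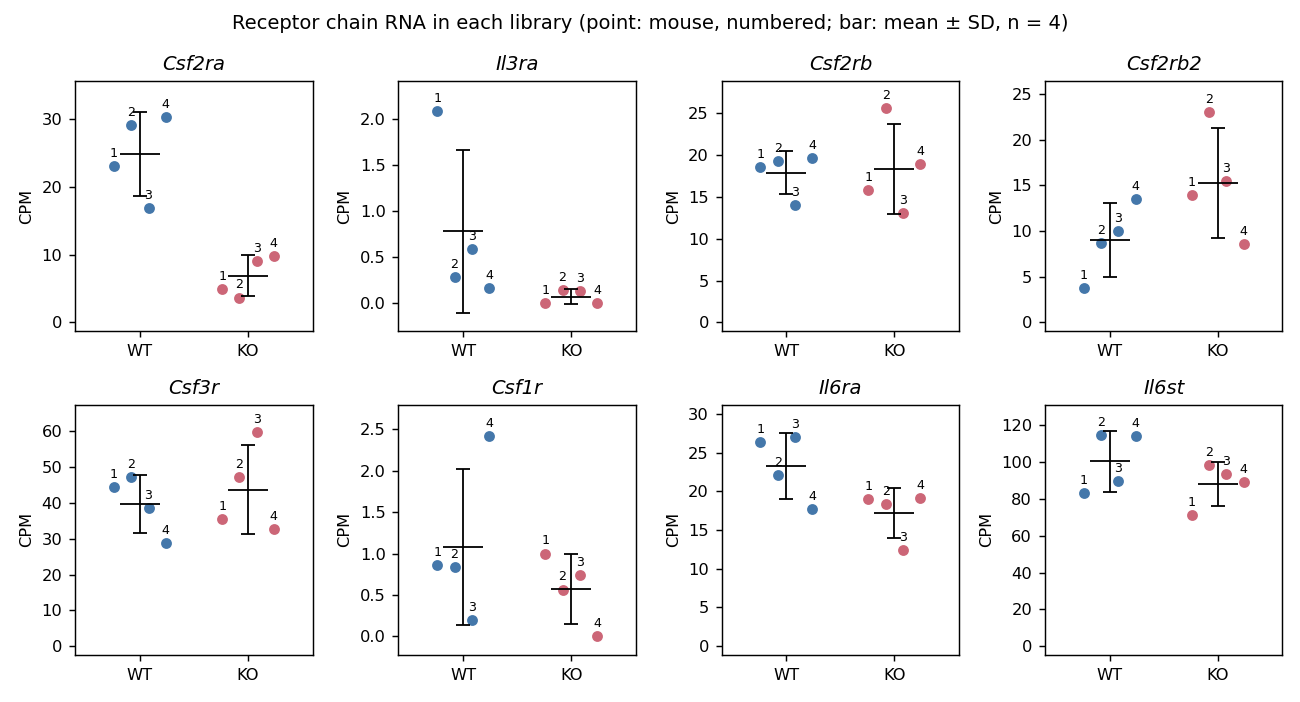
Level of each receptor gene in CPM (vertical axis, linear, a separate scale per gene) in WT and KO. Each point is a mouse, numbered, and the bar is the mean ± SD of 4 mice; the Csf2ra points separate completely, with WT from 16.8 to 30.3 and KO between 3.68 and 9.84 CPM.

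The sequence before the start of Csf2ra is shown because PU.1, encoded by Spi1, is the factor best known for driving myeloid receptor genes, and its core motif lies close to the start that RefSeq gives. The core, GAGGAA, was searched on both strands of the 250 bases upstream of the start in RefSeq (GRCm38.p6), as the only motif. Capitals mark the matches, and each run reads 5′ to 3′ on the gene's strand. The Csf2ra window is chr19:61228419-61228668 on the minus strand, and the Csf2rb2 window, given for contrast, is chr15:78305722-78305971 on the minus strand.
Csf2ra: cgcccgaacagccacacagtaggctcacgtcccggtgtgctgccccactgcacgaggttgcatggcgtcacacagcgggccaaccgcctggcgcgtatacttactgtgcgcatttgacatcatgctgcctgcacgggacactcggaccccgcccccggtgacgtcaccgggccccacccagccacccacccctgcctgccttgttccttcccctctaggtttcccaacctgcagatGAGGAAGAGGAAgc
Csf2rb2: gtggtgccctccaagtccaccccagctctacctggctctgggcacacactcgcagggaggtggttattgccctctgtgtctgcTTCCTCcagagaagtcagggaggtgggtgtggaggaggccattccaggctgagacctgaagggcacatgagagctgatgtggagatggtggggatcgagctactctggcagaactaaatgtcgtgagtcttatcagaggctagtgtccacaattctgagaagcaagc
Csf2ra has 2 matches side by side, at 14 to 9 and 8 to 3 bases before the RefSeq start, both on the gene's own strand. The GENCODE coordinates given above place the start further upstream, so by them the match at 14 to 9 spans the start and the match at 8 to 3 lies inside the gene. At least 1 match was found in 23.3% of the 32851 promoters of the table and at least 2 in 3.54%. Of the 6 receptor genes whose promoters were in the table, 4 had a match. Csf2rb2, Csf3r and Il6ra had 1 each, while Il3ra and Il6st had none in this window. The Csf2ra window holds 17 CpG dinucleotides, more than in 76.5% of promoters, and the Csf2rb2 window holds 3, against a median of 6. A match in letters is a description and not a measured binding site.

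Spi1 itself was at 25.2 ± 6.15 CPM (WT) against 28.8 ± 4.16 CPM (KO) (SD, n = 4), with a log2 fold change of 0.15 (95% interval -0.36 to 0.66, edgeR adjusted p = 0.894). Cebpa, which encodes C/EBP alpha, another factor of myeloid receptor genes, was at 3.8 ± 1.68 and 1.89 ± 1.13 CPM and did not pass either, with an interval of -2.07 to 0.22 and an adjusted p of 0.577 by edgeR. Both genes were taken from a list of myeloid transcription factors for their role, after their values were seen. Of 16 tested genes of that list 0 passed, and DESeq2 and voom called 0. At an unadjusted p under 0.05, 1 was higher and 1 lower, against 5.76% higher and 5.44% lower of all genes tested.

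Csf2rb encodes the beta chain shared by GM-CSF, IL-3 and IL-5, and Csf2rb2 encodes the beta chain that serves IL-3 alone. They are neighbours on chromosome 15, Csf2rb2 at 78282507 to 78305721 on the minus strand and Csf2rb at 78325752 to 78353847 on the plus strand. Their coding sequences, of 2688 bases for Csf2rb and 2634 for Csf2rb2, were identical at 2503 of 2628 aligned bases, or 95.2%. A read that falls in a shared stretch cannot be assigned to either gene by its sequence. Windows of 50 bases that occur letter for letter in the other gene made up 26.0% of those in Csf2rb and 26.6% of those in Csf2rb2, and windows of 75 bases 15.8% and 16.1%. The sources used here state neither the read length nor the treatment of reads with several matches, so the division of counts between the 2 genes is uncertain.

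The longest stretch the coding sequences share runs for 242 bases and is shown because a read from it fits both genes equally. It starts at base 2083 and ends at base 2324 of both coding sequences, counted from the first base of the start codon.
Csf2rb and Csf2rb2: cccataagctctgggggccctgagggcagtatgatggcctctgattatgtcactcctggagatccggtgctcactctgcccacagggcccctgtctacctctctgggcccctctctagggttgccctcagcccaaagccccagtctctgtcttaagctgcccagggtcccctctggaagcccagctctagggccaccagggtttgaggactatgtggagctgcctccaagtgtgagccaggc
The ungapped stretch of 90 bases that differs most has 16 differences, marked in capitals, and is where reads can be told apart. It spans bases 308 to 397 of the Csf2rb coding sequence and 311 to 400 of that of Csf2rb2.
Csf2rb: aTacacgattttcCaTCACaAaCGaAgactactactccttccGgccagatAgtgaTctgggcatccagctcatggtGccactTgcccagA
Csf2rb2: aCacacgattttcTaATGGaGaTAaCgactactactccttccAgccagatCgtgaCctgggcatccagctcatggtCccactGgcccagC

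Csf2rb was at 18.5, 19.3, 14.1 and 19.7 CPM in WT mice 1 to 4 and at 15.9, 25.6, 13.0 and 18.9 CPM in KO mice 1 to 4. The groups overlapped throughout, with the highest and the lowest value both in KO. The means were 17.9 ± 2.58 and 18.4 ± 5.4 CPM (SD, n = 4), and the 95% interval of the log2 fold change was -0.63 to 0.58 (edgeR adjusted p = 0.987).

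Csf2rb2 was at 3.81, 8.67, 9.99 and 13.6 CPM in WT mice 1 to 4 and at 14.0, 23.1, 15.4 and 8.54 CPM in KO mice 1 to 4. KO mice 1, 2 and 3 were above every WT mouse, and KO mouse 4 was below WT mice 2, 3 and 4. The log2 fold change was 0.78 (SE 0.377, 95% interval 0.00015 to 1.55), which did not pass over all genes (edgeR adjusted p = 0.446). WT mouse 1 had 22 counts, the fewest, and Csf2rb2 varied 3.55-fold among WT mice, against 1.40-fold for Csf2rb. Without WT mouse 1 the log2 fold change was 0.49, and without KO mouse 4 it was 0.91.

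Since reads may be shared between them, the 2 beta chains were also added together. The sum was at 22.4, 27.97, 24.1 and 33.2 CPM in WT mice 1 to 4 and at 29.9, 48.7, 28.5 and 27.5 CPM in KO mice 1 to 4. KO mouse 2 stood above the other 7 libraries, which overlapped. The log2 fold change of the sum was 0.30 (SE 0.25, 95% interval -0.21 to 0.82, edgeR adjusted p = 0.715), and its means were 26.9 ± 4.82 and 33.6 ± 10.1 CPM (SD, n = 4).

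**Figure D2:**
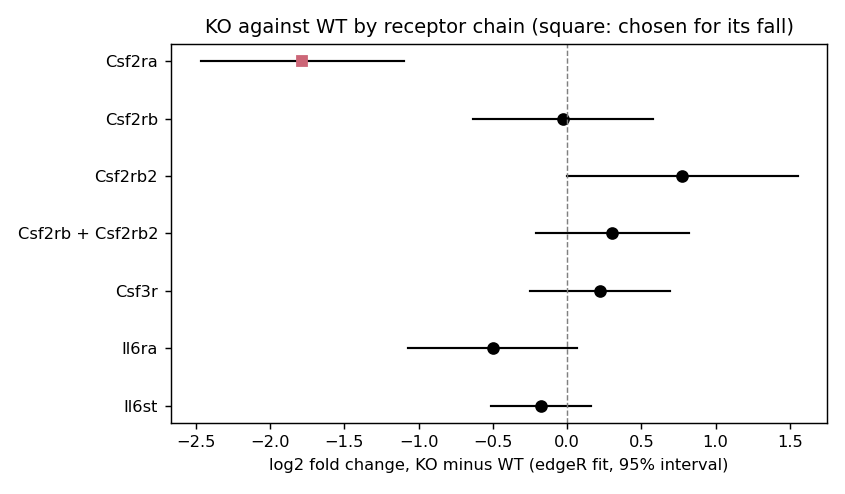
Fitted log2 fold change, KO minus WT (horizontal axis), of the 6 tested receptor genes and of the sum of the 2 beta chains, each with its 95% interval. Csf2ra (square) is at -1.78 and was chosen for this fall, so its interval is not a test against 0. The intervals of Csf2rb, Csf3r, Il6ra, Il6st and the sum include 0, and that of Csf2rb2 starts just above it.

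Within a library the ratio of the alpha chain to its beta chains is not altered by the scaling of library totals. Csf2ra had 1.03, 1.04, 0.699 and 0.913 counts for each count of Csf2rb and Csf2rb2 together in WT mice 1 to 4. In KO mice 1 to 4 the ratio was 0.167, 0.0756, 0.319 and 0.358. The ratio was lower in every KO library than in any WT library. These counts are not divided by gene length, so a ratio near 1 does not mean equal levels of the chains. The ratio is a description as well, since it contains Csf2ra.

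A further 3 ratios, none with Csf2ra, were tested by an exact two-sided permutation test over the libraries, for which 4 against 4 allows no p under 0.0286. Csf2rb2 had 0.206, 0.449, 0.708 and 0.689 counts for each count of Csf2rb in WT mice 1 to 4. In KO mice 1 to 4 there were 0.883, 0.901, 1.18 and 0.451. The ratio was higher in KO mice 1, 2 and 3 than in any WT mouse, and KO mouse 4 was within the WT range (exact permutation p = 0.143, adjusted over the 3 ratios 0.214, n = 4 per group). It rests on the uncertain division of reads described above. Il6ra had 0.155 to 0.317 counts for each count of Il6st in WT and 0.132 to 0.268 in KO, ranges that overlap almost entirely (exact permutation p = 0.457, adjusted 0.457, n = 4 per group).

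**Figure D3:**
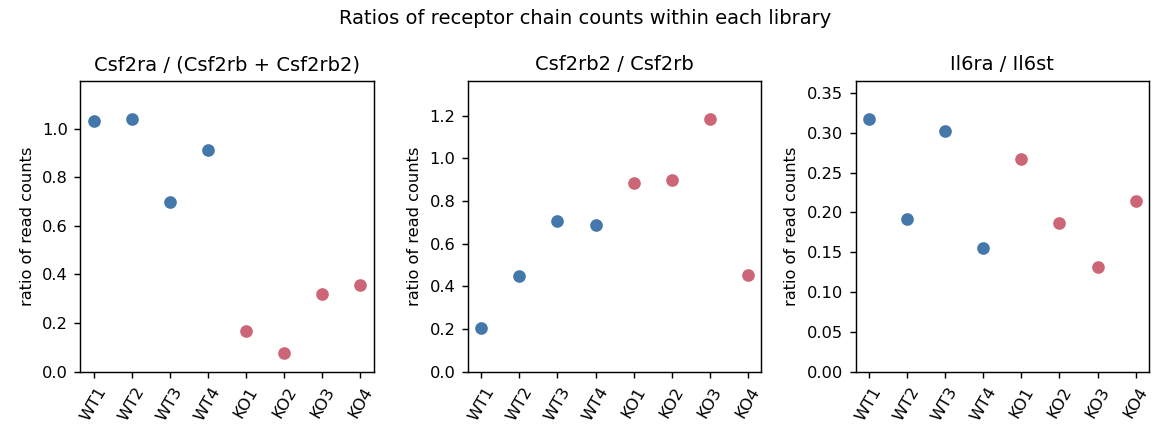
Ratio of read counts of receptor chain genes (vertical axis, from 0, a separate scale per panel) in each library (horizontal axis). The ratio of Csf2ra to the 2 beta chains runs from 0.699 to 1.04 in WT and from 0.0756 to 0.358 in KO, while the ratios of Csf2rb2 to Csf2rb and of Il6ra to Il6st overlap between the groups.

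Il3ra encodes the IL-3 alpha chain and lies on chromosome 14 (14346275 to 14356011, plus strand), where 1.55% of its exon bases overlap an antisense gene. It had 12, 1, 3 and 1 counts in WT mice 1 to 4, and 0, 1, 2 and 0 counts were found in KO mice 1 to 4. In 7 of the 8 libraries it was at or under 3 counts, and WT mouse 1 alone was above. No fold is given, since Il3ra was not detectable at this depth in any KO library. The ratio of Il3ra to the summed beta chains ran from 0.00485 to 0.0930 in WT and from 0 to 0.00469 in KO (exact permutation p = 0.0286, the smallest possible, adjusted over the 3 ratios 0.0857, n = 4 per group). That ordering rests on libraries with 3 counts or fewer.

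Csf3r encodes the receptor for G-CSF, the cytokine that drives neutrophil production, and lies on chromosome 4 (126024550 to 126044440, plus strand). It was at 44.4, 47.3, 38.6 and 28.9 CPM in WT mice 1 to 4 and at 35.4, 47.1, 59.8 and 32.7 CPM in KO mice 1 to 4. The groups overlapped, with KO mouse 3 highest and WT mouse 4 lowest. The log2 fold change was 0.22 (SE 0.23, 95% interval -0.25 to 0.69, edgeR adjusted p = 0.789), and without KO mouse 3 it was -0.013.

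Csf1r encodes the receptor for M-CSF, the growth factor of macrophages, and lies on chromosome 18 (61100598 to 61132149, plus strand). It had 5, 3, 1 and 15 counts in WT mice 1 to 4, with 7, 4, 11 and 0 counts found in KO mice 1 to 4. It was not tested, and the groups overlapped. Of its exon bases, 15.1% overlap Hmgxb3 on the opposite strand, and the strand setting of the counting is not stated, so some of these few reads may come from that gene.

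Il6ra encodes the alpha chain that binds IL-6 and lies on chromosome 3 (89864059 to 89913196, minus strand). It was at 26.4, 22.1, 27.0 and 17.7 CPM in WT mice 1 to 4 and at 19.0, 18.4, 12.4 and 19.1 CPM in KO mice 1 to 4. WT mouse 4 lay among the KO libraries, and the other WT mice were above all of them. The log2 fold change was -0.50 (SE 0.275, 95% interval -1.07 to 0.066), which did not pass (edgeR adjusted p = 0.51).

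Il6st encodes gp130 and lies on chromosome 13 (112464070 to 112510086, plus strand). It was at 83.0, 115, 89.5 and 114 CPM in WT mice 1 to 4 and at 71.0, 98.4, 93.8 and 89.1 CPM in KO mice 1 to 4. WT mice 2 and 4 were above all KO mice, and WT mice 1 and 3 were within the KO range. With 411 to 1403 counts per library it was the most deeply counted of the 8 genes, and its spread was the narrowest in KO, with a coefficient of variation of 13.6%. The log2 fold change was -0.18 (SE 0.164, 95% interval -0.52 to 0.16, edgeR adjusted p = 0.76).

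A motif shared by most of these chains is shown as the sequence feature that places them in 1 family. Most class I cytokine receptors carry, outside the cell, the residues tryptophan and serine, then any residue, then tryptophan and serine again. The codons were searched in frame in the longest coding transcript of GENCODE M21, and capitals mark the tryptophan and serine codons.
Csf2rb: gggatcTGGAGCaagTGGAGCgaagag
Csf2rb2: gggatcTGGAGCgagTGGAGCaatgag
Csf3r: ggattcTGGAGCcccTGGAGCcccggc
Il6ra: ggccagTGGAGCgaaTGGTCCccagag
Il6st: ggctacTGGAGTgacTGGAGTgaggag
Each of these 5 genes had 1 match, and the coding sequences of Csf2ra (1164 bases) and Il3ra (1188 bases) had 0 exact matches to this pattern. The middle codon differs between Csf2rb and Csf2rb2. Csf1r was not searched.

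Levels of different genes were compared only per length, as RPKM, here CPM for each kilobase of all annotated exons of the gene. In WT the order was Csf3r at 11.0 ± 2.25, Il6st at 9.05 ± 1.49, Csf2ra at 8.65 ± 2.16, Il6ra at 2.70 ± 0.498, Csf2rb at 2.46 ± 0.355 and Csf2rb2 at 1.90 ± 0.85 RPKM (SD, n = 4), with Il3ra at 0.262 and Csf1r at 0.187 RPKM. The first 3 overlapped in range and did not differ beyond their spread, nor did the next 3. Csf2ra was above Il6ra in 4 of 4 WT libraries with no overlap, so in WT it belonged to the upper group. In KO the order was Csf3r at 12.1 ± 3.43, Il6st at 7.94 ± 1.08, Csf2rb2 at 3.22 ± 1.26, Csf2rb at 2.52 ± 0.743, Csf2ra at 2.40 ± 1.05 and Il6ra at 1.99 ± 0.377 RPKM. There Csf2ra overlapped both neighbours and lay in the lower group. The choice of length shifts this order, because all annotated exons of Csf2ra together span 2871 bases, against 1849 in its longest coding transcript. With that transcript Csf2ra came first of the 8 in WT, at 13.4 ± 3.35 RPKM, and ranked 4 in KO, at 3.73 ± 1.64 RPKM.

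**Figure D4:**
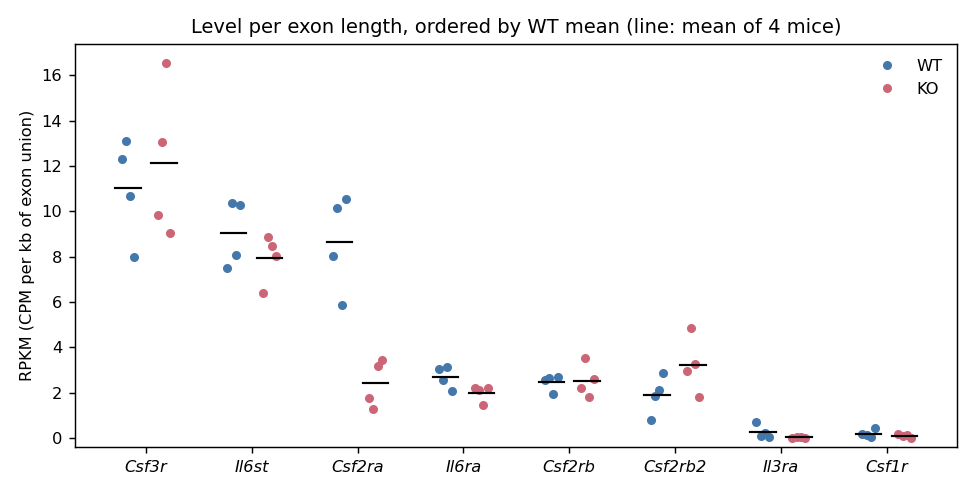
Level per exon length in RPKM (vertical axis, linear) of the 8 receptor genes, ordered by WT mean; points are mice and the line is the mean of 4. Csf2ra is with Csf3r and Il6st in WT, at 8.65 RPKM, and with the beta chains and Il6ra in KO, at 2.40 RPKM.

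Among 50 cytokine and growth factor receptor genes, these 8 and 42 others on lists drawn up for the purpose, none of the 8 was near the top. Kit, the stem cell factor receptor, was at 123 ± 6.81 RPKM in WT (SD, n = 4) and ranked 2 in both groups. By mean RPKM Csf3r ranked 10 of 50 in WT and 11 in KO, and Il6st 14 in both. Csf2ra ranked 16 in WT and 26 in KO.

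The rest of the pathway was read from 7 lists, with 117 of 150 distinct genes tested. Of these, 0 passed edgeR's quasi-likelihood test over all genes, and DESeq2 and limma voom called 0. At an unadjusted p under 0.05 there were 13, 4 higher and 9 lower, which is 11.1% against 11.2% of all genes. Their median log2 fold change was -0.064, against 0.0021 over all genes tested.

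Of the genes for GM-CSF, IL-3, G-CSF, M-CSF and IL-6, Csf1 alone had more than 4 counts in any library. Csf1, which encodes M-CSF, had 25 to 245 counts and was at 9.83 ± 3.04 CPM (WT) against 10.9 ± 4.00 CPM (KO) (SD, n = 4), with a 95% interval of the log2 fold change of -0.52 to 0.98 (edgeR adjusted p = 0.886). Csf2, which encodes GM-CSF, had at most 3 counts in any library, Il3 at most 1 and Csf3 at most 1, and Il6 had at most 4. Csf1 and Ebi3 were named after their values were seen. Of 16 ligand genes, which include the wider IL-6 family, 4 were tested: Csf1, Ebi3, Ctf1 and Osm. Ebi3, a subunit of IL-27, had 10 to 88 counts and was at 5.91 ± 3.15 and 6.33 ± 0.399 CPM. Ctf1 had the smallest p of these and encodes cardiotrophin 1 of the IL-6 family. It was at 4.61 ± 3.04 CPM (WT) against 9.15 ± 2.55 CPM (KO) (SD, n = 4, edgeR adjusted p = 0.475). Osm, which encodes oncostatin M, was next, at 4.77 ± 1.80 and 7.66 ± 3.59 CPM. None of the 4 passed.

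Among the other chains of the same receptor families 3 of 7 were tested and 0 passed. Osmr, the oncostatin M receptor, had 0 to 30 counts, and Il11ra1, the IL-11 alpha chain, was at 25.6 ± 7.86 CPM (WT) against 21.96 ± 8.32 CPM (KO) (SD, n = 4). Il5ra, the IL-5 alpha chain and the remaining partner of Csf2rb, had at most 15 counts and was not tested; it was named after its values were seen. Of 25 tested receptors of other families 0 passed, 1 being higher and 4 lower at an unadjusted p under 0.05. Of all genes tested, 5.76% were higher and 5.44% lower at that cutoff. The median log2 fold change of these receptors was -0.24, against 0.0021 over all genes tested. Kit was at 1093 ± 60.6 CPM (WT) against 888 ± 99.6 CPM (KO), with no overlap (edgeR adjusted p = 0.219). Crlf2, the receptor chain for TSLP, was at 7.44 ± 2.22 and 3.49 ± 0.967 CPM, also without overlap (edgeR adjusted p = 0.288). Libraries that do not overlap were found for 4 of the 117 tested pathway genes, or 3.42%, against 5.81% of all genes tested.

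Of 33 tested signal mediators 0 passed, with a median log2 fold change of -0.044. Jak2, the kinase that the beta common and G-CSF receptors use, was at 197 ± 26.5 CPM (WT) against 182 ± 28.3 CPM (KO) (SD, n = 4), with a 95% interval of the log2 fold change of -0.41 to 0.17. Jak2, Stat5a, Stat5b and the genes Cish and Pim1 given further on were chosen for their role after their values were seen. Stat5a was at 72.3 ± 2.26 and 75.5 ± 17.2 CPM and Stat5b at 88.1 ± 10.1 and 75.9 ± 6.92 CPM. Among the genes of the list with the smallest p was Jak1, at 556 ± 28.8 and 469 ± 64.1 CPM (edgeR adjusted p = 0.39). When no filter on low counts was used, Fos of the STAT target list passed, at a log2 fold change of -0.50 (edgeR adjusted p = 0.0262). In the main fit Fos did not pass, at a log2 fold change of -0.52 (edgeR adjusted p = 0.698). Its libraries overlapped, at 326 ± 129 CPM (WT) against 227 ± 85.5 CPM (KO).

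Of 24 tested signal inhibitors 0 passed, 1 being higher and 2 lower at an unadjusted p under 0.05. Of all genes tested, 5.76% were higher and 5.44% lower at that cutoff. Cblb, a ubiquitin ligase that dampens receptor signalling, was at 186 ± 20.3 CPM (WT) against 143 ± 27.4 CPM (KO), and Socs7 at 62.5 ± 9.96 and 46.9 ± 7.65 CPM (SD, n = 4, edgeR adjusted p = 0.33 and 0.401). Among 19 tested target genes of STAT5 and STAT3, 0 passed, and 1 was lower at an unadjusted p under 0.05. It was Mcl1, which blocks apoptosis, at 616 ± 102 and 483 ± 36.3 CPM (edgeR adjusted p = 0.21). Cish, the inhibitor gene that STAT5 is best known to induce, was at 25.9 ± 10.3 and 23.0 ± 9.55 CPM, and Pim1, a kinase gene of the same kind, at 54.9 ± 7.5 and 57.5 ± 16.5 CPM. In the list of myeloid transcription factors Myb and Egr2 had the smallest p, Myb at 820 ± 77.1 and 687 ± 73.5 CPM and Egr2 at 3 to 130 counts.

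**Figure D5:**
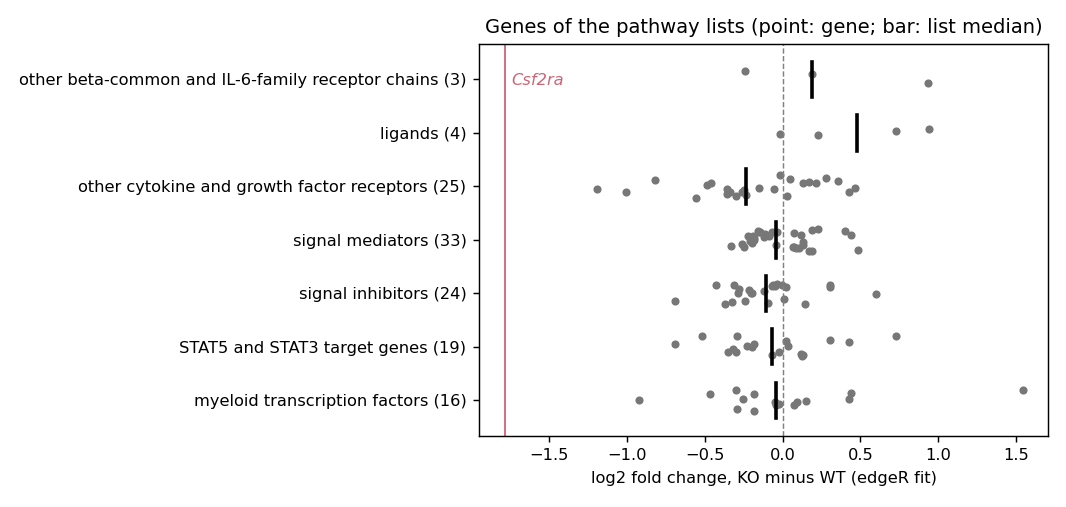
Fitted log2 fold change, KO minus WT (horizontal axis), of each tested gene in the 7 pathway lists, with the number tested in brackets and the list median as a bar. The medians run from -0.24 to 0.48, that of the ligands resting on 4 genes. The line at -1.78 marks Csf2ra, and no list gene lies as far to the left. Csf2ra was chosen for its fall, so nothing is read from this placing.

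The genes whose levels ran most like that of Csf2ra were taken by Pearson's r of log2 CPM over the 8 libraries, among 9588 genes with a mean of at least 5 CPM. Among the 5 highest were Vcam1 (r = 0.976), Sept9 (0.949), Dpp4 (0.949) and Pggt1b (0.947). All 5 had lower means in KO, which the measure favours because Csf2ra separates the groups. Vcam1, an adhesion molecule, was at 7.28, 8.67, 5.68 and 9.36 CPM in WT mice 1 to 4 and at 2.43, 2.12, 2.67 and 3.53 CPM in KO mice 1 to 4. Within each group the mice stood in the same order as for Csf2ra, mouse 4 being highest in both. Vcam1 is also on the list of macrophage and dendritic cell markers given at the end, and its difference did not pass (edgeR adjusted p = 0.135). Dpp4, a surface peptidase, was at 52.2 ± 8.66 CPM (WT) against 21.7 ± 3.23 CPM (KO) (SD, n = 4). The libraries share their groups and their depth, so this likeness is a description with no test.

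The surroundings of Csf2ra hold few genes that could be measured. Of the nearest annotated protein-coding genes, Gm7102, 47.6 kb away, had at most 4 counts, and no other was among the symbols used here. Beside the beta chain genes, Ncf4, 19.9 kb from Csf2rb2, had 2 to 83 counts, Pvalb at most 1 and Tex33 0. Tst, 45.7 kb beyond Csf2rb, was at 15.2 ± 4.72 CPM (WT) against 29.0 ± 5.35 CPM (KO) (SD, n = 4), a log2 fold change of 0.98 (SE 0.277) that did not pass (edgeR adjusted p = 0.124).

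Markers of other cells moved with genotype and are given beside the receptor values. The summed level of 20 neutrophil and monocyte markers was 276 to 335 CPM in WT and 364 to 439 CPM in KO, of which 1 of 8 tested rose, Cxcr2, a chemokine receptor. That of 15 macrophage and dendritic cell markers was 96.4 to 201 CPM in WT and 219 to 286 CPM in KO, where 2 of 7 tested rose, Cd68 and Cd74, and 1 fell, Mrc1. The 15 stem cell markers summed to 5172 to 5508 CPM in WT and 4255 to 4768 CPM in KO. Of these, 0 passed edgeR's test, with 1 higher and 6 lower at an unadjusted p under 0.05 and 2 called by DESeq2. Over all genes tested, 0.583% passed edgeR's test, and 5.76% were higher and 5.44% lower at an unadjusted p under 0.05. At that cutoff 2 of 8 tested neutrophil and monocyte markers were higher and 0 lower. Of 7 tested macrophage and dendritic cell markers 4 were higher and 2 lower. The neutrophil and monocyte markers and the macrophage and dendritic cell markers were higher in sum in KO, but not gene by gene. The fitted change was above 0 for 6 of 8 tested neutrophil and monocyte markers and 5 of 7 tested macrophage and dendritic cell markers. Besides Mrc1, Vcam1 of the latter list was lower in KO, at 7.75 ± 1.63 CPM (WT) against 2.69 ± 0.603 CPM (KO), without overlap. Other marker sums, in WT and then KO, were 2276 to 2486 and 1326 to 1530 CPM for erythroid cells, where Car2 fell, and 1061 to 1327 and 1216 to 1345 CPM for megakaryocytes and platelets, where Gp1ba and Itga2b rose. At an unadjusted p under 0.05, 0 of 7 tested erythroid markers were higher and 2 lower. Of 9 tested megakaryocyte and platelet markers 5 were higher and 2 lower. The sums were 3.99 to 18.5 and 7.24 to 13.0 CPM for mast cells, basophils and eosinophils, 24.1 to 49.8 and 33.8 to 55.2 CPM for B, T and NK cells, and 81.7 to 107 and 67.9 to 109.6 CPM for stroma and endothelium, with 0 genes called in these 3 lists by edgeR, DESeq2 or voom and 0 at an unadjusted p under 0.05. Their part in the Csf2ra difference was not tested.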

How the data were processed

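Gene counts were deposited as whole-number counts per gene symbol for each of 8 mice. Per the labels' protocols and, for the build, the submitters' processing notes, the authors used STAR 2.4.0d-2, htseq-count 0.6.1galaxy1 and the mm10 build, and DESeq2 for their own tests, which are not used here. Annotation, strand setting and read length are not stated in these sources. The 24222 symbols were filtered with filterByExpr (minimum count 10, minimum total 15), which left 11498. Counts were scaled by TMM and tested with edgeR 4.0.16 (quasi-likelihood, Benjamini-Hochberg over all genes tested, threshold 0.05) in R 4.3.3, with DESeq2 1.42.0 and limma 3.58.1 voom as alternatives. The scripts were tested on simulated data. Exon lengths and positions came from GENCODE M21 (GRCm38) and promoters from RefSeq (GRCm38.p6). Count ratios were tested on the log2 scale with a pseudocount of 0.5 by exact two-sided permutation.

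Total counts per library ranged from 3594315 to 14872493. Without molecular identifiers, the floor of 3 counts covers counting error only. The labels number the mice within each group, so replicates are separate animals. Libraries of a group differed by more than sampling noise.

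The genes and the lists were chosen with earlier results of these data known. Genes named by rule are the 8 receptor genes, the 3 targeted genes, from each pathway list those past the threshold or else the 2 with the smallest p, the 5 most like Csf2ra (mean of at least 5 CPM) and the nearest protein-coding genes. Further genes were named outside this rule, for their role, as cell type markers or after their values were seen. Alternatives were other scaling, filters and tools, the replicate block, thinning to equal depth and leaving out each mouse. Some genes that the rule selects are not reported here.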

Additional observations from a re-analysis of the deposited data

Results flagged for a closer look

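Each gene reported under the naming rule given above and each chain ratio was checked within each group, 72 combinations in all. Genes named outside that rule, among them the cell type markers that the rule does not select, were not checked. Single libraries far from the other 3 of their group were found in 9 of them, and chance alone gives about 1 in 20. The 72 include groups at 0 in every library, which cannot be flagged. Among the receptor genes there was 1: Il6ra in KO mouse 3, at 12.4 CPM against 18.4 to 19.1 CPM in the other KO mice. KO mouse 3 was also the most deeply sequenced library. Osm stood at 7.44 CPM in WT mouse 3 (others 3.64 to 4.19 CPM). Osmr stood at 2.58 CPM in WT mouse 4 (others 0 to 0.280 CPM) and at 0 in KO mouse 4 (others 1.86 to 2.12 CPM). Il11ra1 was at 34.3 CPM in KO mouse 1 (others 16.2 to 19.1 CPM). Of the genes most like Csf2ra, Dpp4 was at 65.2 CPM in WT mouse 2, the shallowest library (others 47.4 to 48.9 CPM). Among neighbouring genes, Ncf4 was at 3.39 CPM in WT mouse 4 (others 0.347 to 0.783 CPM). Gm7102 at 0.173 CPM in WT mouse 1 and Pvalb at 0.143 CPM in KO mouse 1, each with the other 3 libraries at 0, are values of 1 count.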

How the results depend on the processing

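The log2 fold change of Csf2ra stayed between -2.06 and -1.61 in 17 alternatives. None of the other tested receptor genes passed in any of them. The number of genes past the threshold was 67, against 199 with no filter on low counts, 154 with DESeq2 and 35 to 70 leaving out 1 mouse (35 without WT mouse 3, 44 without WT mouse 2 and 44 without KO mouse 4). Without the filter, 2 pathway genes passed, an alternative chosen after seeing the data. The sign for Csf2rb, -0.027, turned to 0.028 with DESeq2, 0.026 with voom, 0.032 with edgeR's legacy fit and 0.30 when summed with Csf2rb2, and ranged from -0.24 to 0.18 leaving out 1 mouse. For Csf3r the range was -0.013 to 0.32, negative only without KO mouse 3. The cause of these shifts was not tested. With the longest coding transcript as length, chosen after seeing the data, Csf2ra ranked 1 in WT and 4 in KO. Same-numbered mice did not deviate together (r from -0.092 to -0.0089). With the replicate block 57 genes passed, Csf2ra was at -1.75 and Csf2rb at 0.0012. Depth limits Il3ra and Csf1r, which had 0 to 15 counts.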
